A study of Homo sapiens with 4 samples.

Results

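The genes described here encode carriers that move amino acids across the plasma membrane and out of lysosomes. They were chosen by name, as 32 solute carrier (SLC) genes, from the 57820 gene identifiers in the deposited count files, and all 32 matched an identifier. Earlier results of these data were known when they were chosen, so their counts beside all genes are a description. Expression was measured by sequencing poly(A)-selected RNA of Daoy, which is a human line grown from a medulloblastoma, a cerebellar tumour. The series asks which genes differ when ARID1B, a subunit of a chromatin remodelling complex, is lowered. The 4 libraries fell into 2 groups. One library was labelled ARID1B shRNA and came from a polyclonal Daoy population with a lentiviral short hairpin RNA (shRNA) against ARID1B, placed under doxycycline control in the vector tet-pLKO-puro. The other 3 were labelled wild type, numbered 1 to 3. The treatment given for every library was doxycycline at 1 µg/ml for 72 h. Control cells in the series were either parental or carried the empty vector, and each wild-type library could be of either kind as far as its label tells.

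Mammalian cells cannot make the essential amino acids and take them up, with many others, through carriers that differ in substrate and coupling. Some carriers use the sodium gradient to concentrate amino acids, and others exchange an amino acid inside for another outside. One family works as pairs: a heavy chain, SLC3A2 (CD98 or 4F2hc) or SLC3A1, takes a light chain of the SLC7 family to the membrane, and the light chain sets the substrate. Several of these genes are known targets of ATF4, the transcription factor of the integrated stress response to amino acid shortage. Carriers in the lysosomal membrane return amino acids from degraded protein to the cytosol, and one of them, SLC38A9, reports lysosomal arginine to the kinase complex mTORC1.

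The library labelled ARID1B shRNA held 8792848 reads in genes, and the wild-type libraries held 12619786 to 15390106. It was the only library of its group, so every spread below is that of the 3 wild-type libraries. Separate cultures are not stated for them, and p-values measure the spread between these libraries only. Any difference in preparation or sequencing run between the groups cannot be told apart from the label. In bulk RNA, fewer cells of a type and less RNA per cell cannot be told apart either. ARID1B itself was not lower under its label: it stood at 175 CPM (reads of a gene, scaled to a library of 1000000 reads), against 164, 88.0 and 72.9 CPM in wild-type libraries 1 to 3. That is a log2 fold change of 0.69 (edgeR adjusted p = 0.399). Every direction below is therefore one of the library labelled ARID1B shRNA. Of 20 neural and medulloblastoma markers, 17 were detected well enough to be tested. The 20 summed to 1221 CPM in the library labelled ARID1B shRNA and 2671 to 2937 CPM in wild type. VIM made up most of that sum, at 937 CPM against 2658, 2443 and 2439 CPM, and was lower (edgeR adjusted p = 0.0213). ZIC2 was higher, at 24.8 CPM against 8.93, 10.6 and 8.14 CPM (edgeR adjusted p = 0.043), and the other 15 tested markers were not called. ATOH1 was at 0 in all libraries, and NEUROD1 had no counts in the library labelled ARID1B shRNA and at most 0.466 CPM in wild type. All 7 blood and immune markers stayed below 1 CPM in every library. The 6 epithelial markers summed to 10.7 CPM, against 9.24, 15.2 and 22.3 CPM, and the 3 endothelial markers to 1.03 CPM, against 0.699, 0.773 and 1.43 CPM. The part of these markers in the results below was not tested. The GC content of a transcript moved with the change between the groups, with a Spearman correlation of 0.47 across 16620 genes, which share the same 4 libraries. Values from a fit that removes each library's dependence on GC content and transcript length (trend removed) are therefore given beside the measured ones.

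Large increases of some carriers stood beside others that hardly differed. Of the 32 transporters, 30 passed the filter on low counts; SLC1A2 and SLC3A1 did not. Of those 30, 8 were higher in the library labelled ARID1B shRNA and 0 were lower at an edgeR adjusted p below 0.05, where 3.65% of all 17024 tested genes were higher and 0.834% were lower. The 8 were SLC7A5, SLC7A11, SLC7A3, SLC6A9, SLC3A2, SLC1A5, SLC1A4 and SLC38A1. At an unadjusted p below 0.05, 12 of the 30 passed, as did 25.4% of all tested genes. DESeq2 gave an adjusted p to 28 of the 30, all but SLC38A3 and SLC38A5, and called 10 of them, all higher and among them these 8. Of all genes with such a p, DESeq2 called 8.88% higher and 11.8% in either direction. The median log2 fold change was 0.30 over the 30 and -0.05 over all tested genes. With the trend removed, 7 of the 8 were still called and no other transporter was, where 2.00% of all genes were higher; SLC7A11 was the one lost. Of the 30, 14 stood above all wild-type libraries and 7 below all of them. Of all tested genes 35.4% stood above and 37.9% below. The 32 genes together summed to 4701 CPM in the library labelled ARID1B shRNA, against 2174, 2634 and 2341 CPM in wild-type libraries 1 to 3.

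**Figure D1:**
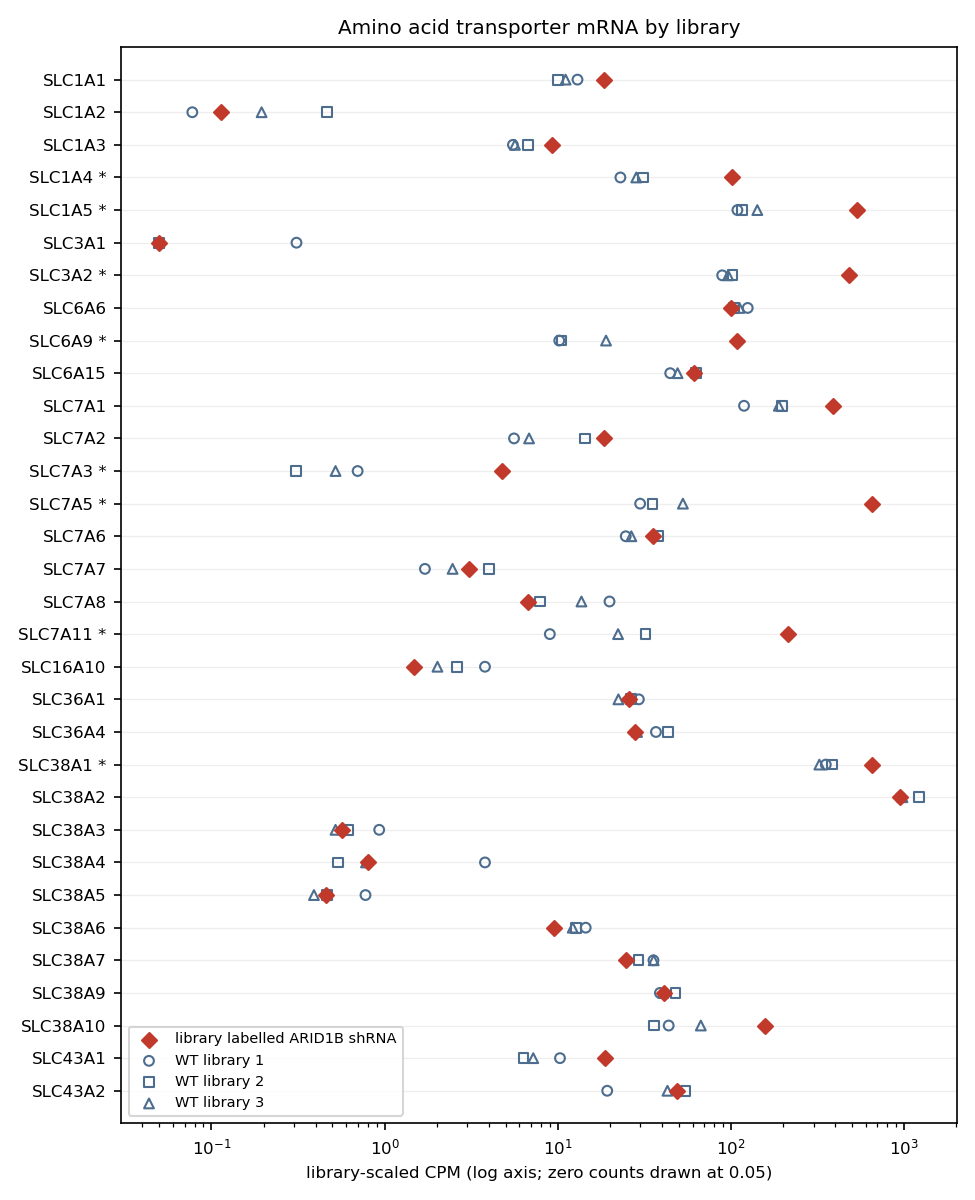
Library-scaled CPM (log axis) of the 32 transporter genes in the library labelled ARID1B shRNA (red diamonds) and in wild-type libraries 1 to 3 (open blue symbols); a star marks genes with an edgeR adjusted p below 0.05. The 8 starred genes lie to the right of all wild-type symbols, and SLC38A2, at 944 CPM in the library labelled ARID1B shRNA, does not.

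The upstream sequences of these genes are shown because the transporters that rose are in part known ATF4 targets, and ATF4 binds, with a C/EBP partner, the C/EBP-ATF response element. Windows of 300 bases, from 250 before to 50 after each annotated transcript start, came from RefSeq on GRCh38.p14. They were found by symbol for 24 of the 32 genes, with 45 windows; SLC1A2, SLC3A1, SLC6A6, SLC6A15, SLC7A2, SLC7A3, SLC7A11 and SLC38A3 were not in that table. The core TGATGNAA, sought on both strands, was in 6 of the 45 windows and in 3.62% of all 35116 windows of that length. Counted by gene it was in 6 of 24 transporters and in 4.46% of 27305 genes. Those 6 were SLC3A2, SLC1A4, SLC1A5, SLC38A1, SLC7A1 and SLC1A3, and the first 4 are among the 6 called transporters that have a window. SLC7A5, which rose most, had no match to TGATGNAA, and neither did SLC6A9. The antioxidant response element core TGACNNNGC was in 7 of the 45 windows and 13.3% of all windows. Counted by gene it was in 7 of the 24 and 16.1% of all. Of the 6 called transporters that have a window it was in 3, SLC1A5, SLC3A2 and SLC7A5. The E-box CACGTG was in 8 of the 45 windows and 7.26% of all windows, and by gene in 8 of the 24 and 8.77% of all. Of the same 6 called transporters the E-box was in 2, SLC1A5 and SLC7A5. A gene with more windows has more room for a match, so shares by window are the closer comparison. In the 45 windows, 0 matches to one motif overlapped a match to another. A match is a run of letters, no match says only that the letters are not in the window, and binding was not measured here.

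The 5 windows with a match that belong to called genes or to SLC7A1, and the single SLC7A5 window for comparison, read as follows from 5′ to 3′ on the gene's strand, with capitals for TGATGNAA or its reverse complement. They lie at chr11:62881449-62881748 (plus strand, SLC3A2), chr2:64989149-64989448 (plus, SLC1A4), chr19:46784765-46785064 (minus, SLC1A5), chr12:46266467-46266766 (minus, SLC38A1), chr13:29595639-29595938 (minus, SLC7A1) and chr16:87869458-87869757 (minus, SLC7A5). SLC1A5 and SLC3A2 each have 3 windows, SLC1A4 and SLC38A1 each have 2, and only the one with a TGATGNAA match is shown.
SLC3A2: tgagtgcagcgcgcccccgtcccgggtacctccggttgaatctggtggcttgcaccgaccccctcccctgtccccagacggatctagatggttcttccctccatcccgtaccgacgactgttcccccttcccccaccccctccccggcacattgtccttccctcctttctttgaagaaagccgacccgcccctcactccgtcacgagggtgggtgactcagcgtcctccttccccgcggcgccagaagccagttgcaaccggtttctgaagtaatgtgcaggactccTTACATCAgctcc
SLC1A4: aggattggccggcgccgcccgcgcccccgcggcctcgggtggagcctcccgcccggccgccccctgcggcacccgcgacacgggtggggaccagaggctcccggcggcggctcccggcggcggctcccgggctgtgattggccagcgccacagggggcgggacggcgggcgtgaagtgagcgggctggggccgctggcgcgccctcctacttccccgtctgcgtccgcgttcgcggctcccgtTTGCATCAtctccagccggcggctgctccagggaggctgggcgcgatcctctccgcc
SLC1A5: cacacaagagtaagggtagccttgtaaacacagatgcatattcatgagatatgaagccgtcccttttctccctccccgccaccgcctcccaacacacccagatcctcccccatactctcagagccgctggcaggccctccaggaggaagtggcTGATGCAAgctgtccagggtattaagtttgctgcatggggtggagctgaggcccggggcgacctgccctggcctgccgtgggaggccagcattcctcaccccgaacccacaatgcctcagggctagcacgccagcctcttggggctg
SLC38A1: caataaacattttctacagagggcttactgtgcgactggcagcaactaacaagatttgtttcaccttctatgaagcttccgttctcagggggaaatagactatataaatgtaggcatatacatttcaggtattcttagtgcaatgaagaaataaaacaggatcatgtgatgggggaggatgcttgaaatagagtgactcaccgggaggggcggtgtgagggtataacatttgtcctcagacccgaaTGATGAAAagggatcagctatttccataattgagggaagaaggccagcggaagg
SLC7A1: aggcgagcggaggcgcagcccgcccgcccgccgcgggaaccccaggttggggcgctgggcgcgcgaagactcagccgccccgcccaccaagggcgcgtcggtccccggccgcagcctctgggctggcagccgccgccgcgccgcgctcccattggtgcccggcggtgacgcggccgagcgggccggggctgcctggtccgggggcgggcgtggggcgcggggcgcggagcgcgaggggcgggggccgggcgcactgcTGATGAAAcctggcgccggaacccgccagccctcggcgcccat
SLC7A5: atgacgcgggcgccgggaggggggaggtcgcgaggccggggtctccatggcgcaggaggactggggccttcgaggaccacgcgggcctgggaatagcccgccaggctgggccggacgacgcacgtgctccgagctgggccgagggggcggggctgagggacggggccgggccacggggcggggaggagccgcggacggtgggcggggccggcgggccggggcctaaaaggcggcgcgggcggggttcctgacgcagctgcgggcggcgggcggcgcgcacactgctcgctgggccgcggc
The leftmost letter of the match lay 37 bases after the transcript start in SLC3A2 and 7 bases after it in SLC7A1. It lay at -7 in SLC1A4, at -4 in SLC38A1 and at -97 in SLC1A5, counted from the start as 0. In SLC1A5 the window belongs to the transcript start farthest downstream of its 3.

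The heavy chain and its main light chain rose together. SLC3A2 (ENSG00000168003.12), the heavy chain common to the large neutral and cystine exchangers, had 482 CPM in the library labelled ARID1B shRNA, against 89.0, 102 and 96.3 CPM in wild-type libraries 1 to 3. The wild-type libraries lay within 1.15-fold of each other and all far below. SLC3A2 rose 5.03-fold (log2 fold change 2.33, SE 0.15, edgeR adjusted p = 0.0149). SLC7A5 (ENSG00000103257.4), the LAT1 light chain that exchanges glutamine for leucine and other large neutral amino acids, had 653 CPM there, with an exact 95% Poisson interval of 636 to 670 CPM. Wild-type libraries 1 to 3 had 29.9, 35.2 and 52.8 CPM. This 16.6-fold rise was the largest of the 30 (log2 fold change 4.05, SE 0.30, edgeR adjusted p = 0.015). Its exons overlap those of an annotated antisense gene, whose reads cannot be told apart without strand. SLC7A5 has 2 annotated copies, SLC7A5P1 and SLC7A5P2, which held at most 0.912 CPM in any library. SLC3A1, the other heavy chain, which acts in kidney and gut, had no counts in the library labelled ARID1B shRNA, and 4, 0 and 0 counts in wild type. Both genes were also called with the trend removed, at log2 fold changes of 1.90 for SLC3A2 and 3.09 for SLC7A5, and in each of the other alternatives run.

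SLC7A11 (ENSG00000151012.9), the xCT light chain that imports cystine for glutathione in exchange for glutamate, rose 10.1-fold on a wide wild-type spread. It had 213 CPM in the library labelled ARID1B shRNA, against 9.00, 32.1 and 22.3 CPM in wild-type libraries 1 to 3. The 3.56-fold spread among the wild-type libraries was the widest of the called genes, and the groups did not overlap. On the log2 scale the difference was 3.33, SE 0.58 (edgeR adjusted p = 0.0492). The call was lost with the trend removed (3.58, edgeR adjusted p = 0.0821), with upper-quartile scaling (0.0602), with no filter on low counts (0.295) and without wild-type library 2 (0.0697) or 3 (0.166), while the log2 fold change stayed between 2.97 and 3.77. Its antisense partner SLC7A11-AS1 held at most 0.456 CPM.

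The other light chains did not pass the test. SLC7A6, the y+LAT2 chain, had 35.7 CPM in the library labelled ARID1B shRNA, against 24.7, 38.2 and 26.6 CPM in wild-type libraries 1 to 3. SLC7A7, the y+LAT1 chain mutated in lysinuric protein intolerance, had 3.08 CPM, against 1.71, 4.02 and 2.47 CPM. Both lay within the wild-type range. SLC7A8, the LAT2 chain, had 6.73 CPM, against 19.9, 7.88 and 13.7 CPM in wild-type libraries 1 to 3 (log2 fold change -1.04, SE 0.57, edgeR adjusted p = 0.313). The light chains differed in makeup as well as in amount. Per kilobase of longest transcript, SLC7A5 was 82.6% of the summed light chain level in the library labelled ARID1B shRNA, against 39.4%, 38.1% and 52.3% in wild-type libraries 1 to 3. SLC7A6 was 3.25% there, against 23.4%, 29.8% and 19.0%, and SLC7A8 was 0.916%, against 28.3%, 9.20% and 14.6%. The light chains summed to 174 CPM per kb and SLC3A2 to 217 CPM per kb in the library labelled ARID1B shRNA, a ratio of 0.803. In wild-type libraries 1 to 3 that ratio was 0.418, 0.442 and 0.513. With 1 library against 3, an exact permutation test cannot go below 0.25, so these shares and ratios are a description.

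**Figure D2:**
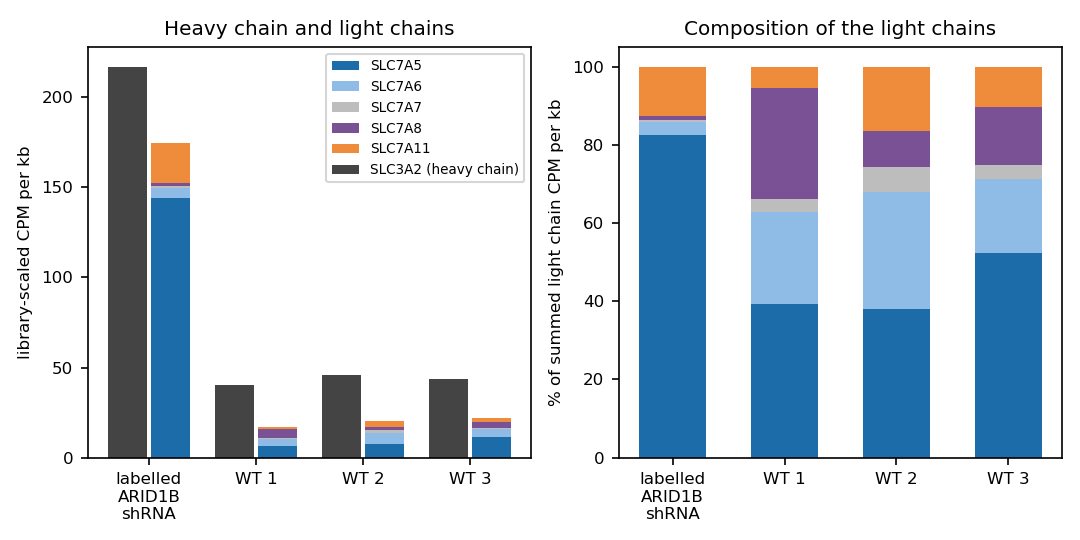
Left, CPM per kb of longest transcript of the heavy chain SLC3A2 (dark bars) and, stacked beside it, of the 5 light chains, in the library labelled ARID1B shRNA and in wild-type libraries 1 to 3. Right, each light chain as a percent of their sum: SLC7A5 is 82.6% in the library labelled ARID1B shRNA and at most 52.3% in wild type.

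Of the 3 cationic amino acid transporters of the SLC7 family, which need no heavy chain and carry arginine and lysine, 1 passed the test. SLC7A1 (CAT1), the most abundant of them, had 391 CPM in the library labelled ARID1B shRNA, against 119, 198 and 189 CPM in wild-type libraries 1 to 3. It stood above each of them and did not pass (log2 fold change 1.21, SE 0.29, edgeR adjusted p = 0.0825). SLC7A1 passed with DESeq2 (1.24, adjusted p = 0.00662), with no filter on low counts (2.09e-08) and without wild-type library 1 (0.0246). It did not pass in the other alternatives. Among these, its log2 fold change was 0.93 with the trend removed, and 1.35 and 1.29 without wild-type libraries 2 and 3. The fit with no filter called 3226 of 30709 genes, against 763 of 17024 as measured. SLC7A2 (CAT2) had 18.4 CPM, against 5.59, 14.3 and 6.83 CPM (edgeR adjusted p = 0.289). SLC7A3 (CAT3) rose 9.24-fold at a very low level. It had 42 counts, or 4.79 CPM, in the library labelled ARID1B shRNA, and 9, 4 and 8 counts, or 0.699, 0.309 and 0.521 CPM, in wild-type libraries 1 to 3 (log2 fold change 3.21, SE 0.49, edgeR adjusted p = 0.033). Leaving out wild-type library 2 or 3 ended its call, at edgeR adjusted p-values of 0.0611 and 0.0845.

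The neutral exchangers of the SLC1 family rose and the acidic carriers of the same family did not pass. SLC1A5 (ASCT2, ENSG00000105281.8), a sodium-dependent exchanger that brings in glutamine, had 538 CPM in the library labelled ARID1B shRNA, against 109, 116 and 142 CPM in wild-type libraries 1 to 3. It rose 4.40-fold (log2 fold change 2.14, SE 0.19, edgeR adjusted p = 0.0175), and the trend-removed value was 1.23 (edgeR adjusted p = 0.0328). SLC1A4 (ASCT1), which exchanges serine, alanine, cysteine and threonine, had 101 CPM, against 23.0, 31.2 and 28.4 CPM in wild-type libraries 1 to 3. It rose 3.67-fold (log2 fold change 1.88, SE 0.22, edgeR adjusted p = 0.0214); without wild-type library 3 the adjusted p was 0.052. Among the glutamate and aspartate carriers, SLC1A1 (EAAT3) had 163 counts in the library labelled ARID1B shRNA, and 167, 130 and 170 counts in the deeper wild-type libraries 1 to 3. On the scaled level that was 18.6 CPM, against 11.4 ± 1.48 CPM in wild type (SD, n = 3; edgeR adjusted p = 0.169). SLC1A3 (EAAT1, the carrier of astrocytes and Bergmann glia) had 9.24 CPM, against 5.51, 6.72 and 5.66 CPM (0.258). Both stood above all wild-type libraries by less than 2-fold. SLC1A2 (EAAT2), the main glutamate carrier of forebrain astrocytes, had 1 count in the library labelled ARID1B shRNA, and 1, 6 and 3 counts in wild type.

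In the sodium- and chloride-coupled SLC6 family, the glycine carrier stood apart. SLC6A9 (GlyT1, ENSG00000196517.7) had 108 CPM in the library labelled ARID1B shRNA, against 10.2, 10.5 and 19.0 CPM in wild-type libraries 1 to 3. It rose 8.17-fold (log2 fold change 3.03, SE 0.36, edgeR adjusted p = 0.0259), and the trend-removed value was 2.36 (0.0219). Without wild-type library 2 its adjusted p was 0.0594. CCDC24, which overlaps it on the opposite strand, had 2.74 CPM there and 3.48 to 5.04 CPM in wild type. SLC6A6, the taurine carrier, had 100 CPM, against 125, 104 and 112 CPM (log2 fold change -0.18, SE 0.19, edgeR adjusted p = 0.572). SLC6A15 (B0AT2), which takes up branched-chain amino acids and proline, had 60.9 CPM, against 44.6, 62.6 and 49.2 CPM (0.593). SLC6A6 lay just below the 3 wild-type libraries and SLC6A15 within their range, and neither passed.

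The SLC38 family held the transporter mRNA with the highest CPM and 1 modest rise. SLC38A2 (SNAT2), a sodium-coupled importer of small neutral amino acids whose mRNA is known to rise in amino acid starvation, had 944 CPM in the library labelled ARID1B shRNA, against 953, 1219 and 978 CPM in wild-type libraries 1 to 3. It differed by -0.15 on the log2 scale, SE 0.20 (edgeR adjusted p = 0.66), and the sign turned to 0.09 with the trend removed. Per kilobase it was 17.9% of the summed level of the 32 genes in the library labelled ARID1B shRNA, and 43.8%, 47.2% and 41.6% in wild-type libraries 1 to 3, where it ranked first. In the library labelled ARID1B shRNA SLC3A2 ranked first per kilobase, at 20.1%. SLC38A1 (SNAT1), its close relative and a glutamine importer, had 654 CPM, against 353, 382 and 324 CPM. It rose 1.85-fold (log2 fold change 0.89, SE 0.16, edgeR adjusted p = 0.0429), which is the smallest called change. Upper-quartile scaling ended the SLC38A1 call (edgeR adjusted p = 0.0611), as did leaving out wild-type library 2 (0.0715) or 3 (0.0933). SLC38A10, a family member whose transport role is less well known, had 158 CPM, against 43.7, 36.1 and 67.0 CPM. It missed the threshold at a log2 fold change of 1.69 (SE 0.33, edgeR adjusted p = 0.0565) and had 0.30 with the trend removed (0.245). It was called with DESeq2 (1.72, adjusted p = 0.000372), limma-voom (1.73, 0.0478) and no filter on low counts (1.67, 1.11e-13), and without wild-type library 3 (1.99, 0.0398). With no filter, 3226 of 30709 genes were called, against 763 of 17024 as measured. The GC content of SLC38A10, 64.3%, was the highest of the 32. SLC38A3 and SLC38A5, the system N carriers, and SLC38A4 stayed below 1 CPM in the library labelled ARID1B shRNA. SLC38A4 had 3.80 CPM in wild-type library 1 and below 1 CPM in wild-type libraries 2 and 3. SLC38A6 had 9.47 CPM, against 14.5, 12.7 and 12.2 CPM (edgeR adjusted p = 0.335).

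The 4 carriers of the lysosomal membrane did not pass the test in either direction, which is near the background of 3.65% of all tested genes higher and 0.834% lower and says nothing particular about them. These were SLC36A1, SLC36A4, SLC38A7 and SLC38A9, with log2 fold changes between -0.43 and -0.01, of which 0 passed by edgeR or DESeq2 and 0 had an unadjusted p below 0.05. SLC38A9, the arginine sensor, had 41.1 CPM in the library labelled ARID1B shRNA, against 38.9, 47.9 and 40.6 CPM in wild-type libraries 1 to 3. SLC38A7 (SNAT7), which exports glutamine and asparagine from lysosomes, had 24.9 CPM, against 35.7, 29.3 and 35.8 CPM, below all of them. Its log2 fold change was -0.43 (edgeR adjusted p = 0.303), with a trend-removed value of -0.99 (0.0513). SLC36A1 (PAT1), a proton-coupled carrier of small amino acids, had 25.9 CPM, against 29.4, 26.4 and 22.4 CPM. SLC36A4 (PAT4) had 28.1 CPM, against 36.9, 43.4 and 28.7 CPM (edgeR adjusted p = 0.46).

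Uniporters, which let amino acids run down their gradient, were low to moderate in level and none passed. SLC43A1 (LAT3) had 18.7 CPM in the library labelled ARID1B shRNA, against 10.3, 6.34 and 7.22 CPM in wild-type libraries 1 to 3 (log2 fold change 1.23, SE 0.34, edgeR adjusted p = 0.0984). Its trend-removed value was 0.73. SLC43A2 (LAT4) had 49.0 CPM, against 19.3, 54.6 and 43.0 CPM, within the wild-type range; its log2 fold change was 0.33 and turned to -0.63 with the trend removed. SLC16A10 (TAT1), the aromatic amino acid carrier, had 1.48 CPM, against 3.80, 2.63 and 2.02 CPM (edgeR adjusted p = 0.348).

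**Figure D3:**
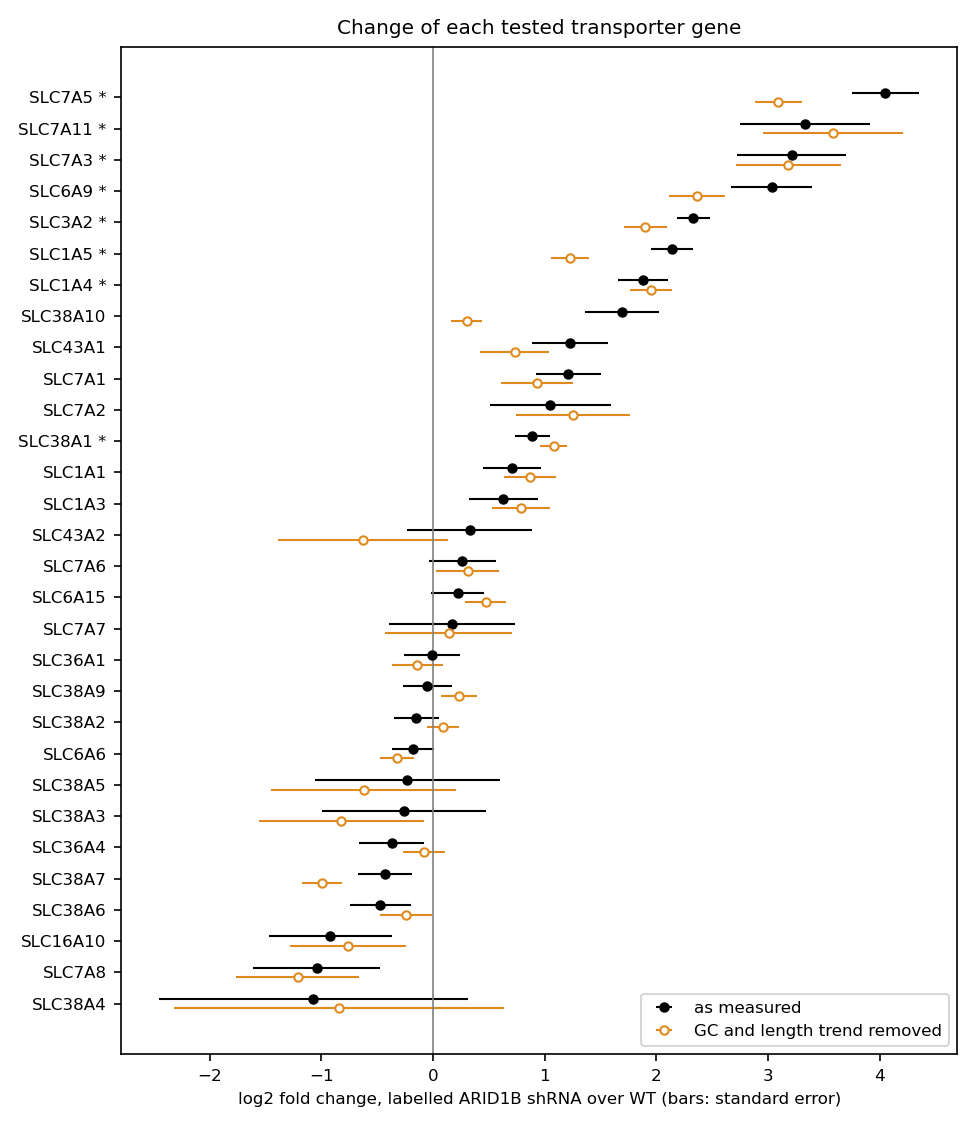
Log2 fold change of the 30 tested transporters, labelled ARID1B shRNA over wild type, with standard errors, as measured (black) and with each library's GC and length trend removed (orange); a star marks an edgeR adjusted p below 0.05 as measured. SLC7A5 moves from 4.05 to 3.09 and SLC38A10 from 1.69 to 0.30, while SLC7A11 and SLC1A4 move little.

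The called transporters spanned a wide range of GC content, from 35.4% in SLC7A11 to 61.3% in SLC1A5. Across the 30 tested transporters, which share the same 4 libraries, GC content and log2 fold change had a Spearman correlation of 0.37. With the trend removed that correlation was 0.06, a drop that the removal is built to give. SLC7A11, SLC38A1 and SLC1A4, at 35.4%, 41.3% and 46.5%, changed by 3.33, 0.89 and 1.88 on the log2 scale as measured and by 3.58, 1.08 and 1.95 with the trend removed. SLC1A5, SLC7A5 and SLC6A9, at 61.3%, 61.1% and 59.6%, changed by 2.14, 4.05 and 3.03 as measured and by 1.23, 3.09 and 2.36 with it removed.

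**Figure D4:**
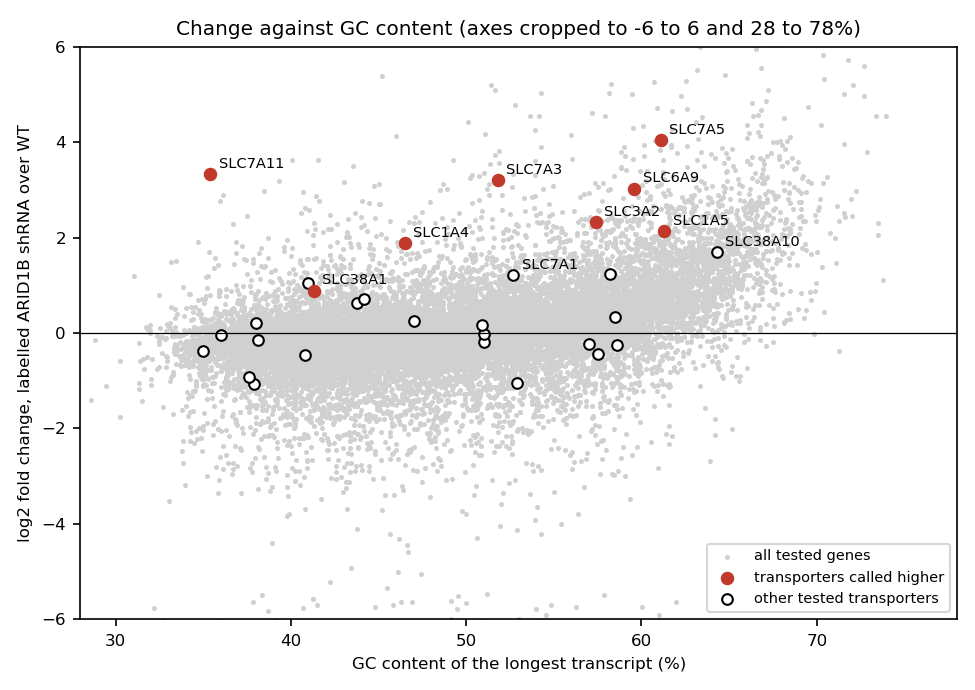
Log2 fold change, labelled ARID1B shRNA over wild type, against GC content of the longest transcript (%), for all tested genes (grey), the 8 called transporters (red) and the other tested transporters (open circles). Axes are cropped, so a few grey points lie outside; the cloud of all genes rises to the right, and the 8 called genes lie between 35.4% and 61.3% GC.

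The transporters were set beside lists of other carriers. The other SLC genes, counted first, include the SLC genes of the lists after them, so these counts are not separate. By edgeR, 3.65% of all tested genes were higher and 0.834% lower, the shares to set beside each count here. Of 196 other tested SLC genes 5 (2.55%) were higher and none lower, with a median log2 fold change of 0.07. Among them 56 had an unadjusted p below 0.05 and DESeq2 called 22, against 25.4% and 11.8% of all genes. With the trend removed 1 was higher and 1 lower, against 2.00% and 1.22% of all tested genes. Of 25 further amino acid carriers outside the 32, only 8 were tested and 1, MFSD12, which brings cysteine into lysosomes, was higher, at 95.4 CPM against 23.4, 27.3 and 34.8 CPM (edgeR adjusted p = 0.0296). Its log2 fold change of 1.74 turned to -0.13 with the trend removed. SLC66A1 and SLC6A17 had 1.06 and 1.51 (edgeR adjusted p = 0.12 and 0.124). With the trend removed SLC66A1 turned to -0.14 and SLC6A17 had 0.82. Of 11 tested mitochondrial amino acid carriers none was called as measured (4 at an unadjusted p below 0.05, 3 by DESeq2, against 25.4% and 11.8% of all genes). Their smallest p-values belonged to SFXN3, a serine carrier, with -1.19, the aspartate-glutamate carrier SLC25A12 with -0.81 and the glutamate carrier SLC25A22 with 2.43 (edgeR adjusted p = 0.0559, 0.0727 and 0.0941). With the trend removed SFXN3 was called lower (-1.47, edgeR adjusted p = 0.0219), where 1.22% of all genes were. SLC25A12 then had -0.63 and SLC25A22 had 1.29, and neither was called. Of 16 glucose and monocarboxylate carriers none was called (6 at an unadjusted p below 0.05, 3 by DESeq2), with SLC16A3 at 2.78, SLC2A1 at 1.29 and SLC16A8 at 2.42 (0.0515, 0.0558 and 0.0897). With the trend removed SLC16A3, SLC2A1 and SLC16A8 had 1.66, 1.04 and 0.49, and none of them was called. Of 25 cation, chloride and zinc carriers 2 were higher, SLC12A7 (1.40, edgeR adjusted p = 0.0458) and SLC39A3 (1.80, 0.0478), and SLC12A4 had 0.96 (0.0716). Of the 25, 8 had an unadjusted p below 0.05 and DESeq2 called 4. Neither SLC12A7 nor SLC39A3 was called once the trend was removed, at edgeR adjusted p-values of 0.168 and 0.0521.

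Among 18 tested regulators of transporter genes and of the stress response, 8 were higher and none lower, where 3.65% and 0.834% of all tested genes were. Earlier results of these data were known when this list was chosen, so its counts are a description. Of the 18, 12 had an unadjusted p below 0.05 and DESeq2 called 9, against 25.4% and 11.8% of all genes. With the trend removed 6 were higher, against 2.00% of all tested genes. Those lost were CEBPB, a C/EBP factor, which moved from 2.73 to 1.09 (edgeR adjusted p = 0.385), and MAFG. MAFG, a small MAF partner of NRF2, moved from 1.47 to 0.90 (0.144). ATF4 had 810 CPM in the library labelled ARID1B shRNA, against 262, 302 and 277 CPM in wild-type libraries 1 to 3. Its log2 fold change of 1.53 passed (edgeR adjusted p = 0.0183), and so did the trend-removed value of 1.17 (0.0442). Its relative ATF3 rose by 2.32 (edgeR adjusted p = 0.0183) and the stress-induced cofactor NUPR1 by 2.73 (0.023) on the log2 scale. The other called regulators were MYC, DDIT3 and CEBPG, with log2 fold changes of 1.84, 1.87 and 1.21. With the trend removed they had 1.68, 1.95 and 1.37 and were still called. MYC had 55.8 CPM in the library labelled ARID1B shRNA, against 13.3, 17.2 and 16.3 CPM in wild-type libraries 1 to 3. NFE2L2, which encodes NRF2, a known activator of SLC7A11, had 195 CPM, against 135, 182 and 148 CPM, and its log2 fold change of 0.33 did not pass (edgeR adjusted p = 0.377). Of 31 genes that link lysosomal amino acids to mTORC1, 2 were higher: the leucine sensor SESN2, at 268 CPM against 8.77, 14.4 and 17.2 CPM, and TFE3, a transcription factor of lysosomal genes, at 117 CPM against 53.8, 58.5 and 61.6 CPM (edgeR adjusted p = 0.0174 and 0.0378). TFE3 was not called with the trend removed (0.48), and RRAGD, a Rag GTPase, had -0.94 (0.0636).

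The count of called transporters depended on which wild-type libraries were used. Without wild-type library 2, 4 of the 8 were still called, SLC1A4, SLC1A5, SLC3A2 and SLC7A5, each at an edgeR adjusted p of 0.049, where 0.836% of all tested genes were higher. Without wild-type library 3, 5 were called, where 2.68% of all were higher: SLC1A5, SLC3A2, SLC6A9, SLC7A5 and, in addition to the 8, SLC38A10. Without wild-type library 1, 10 were called, the 8 with SLC7A1 and SLC43A1, where 5.43% of all were higher. SLC3A2, SLC7A5 and SLC1A5 were called in each of the 9 alternatives.

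**Figure D5:**
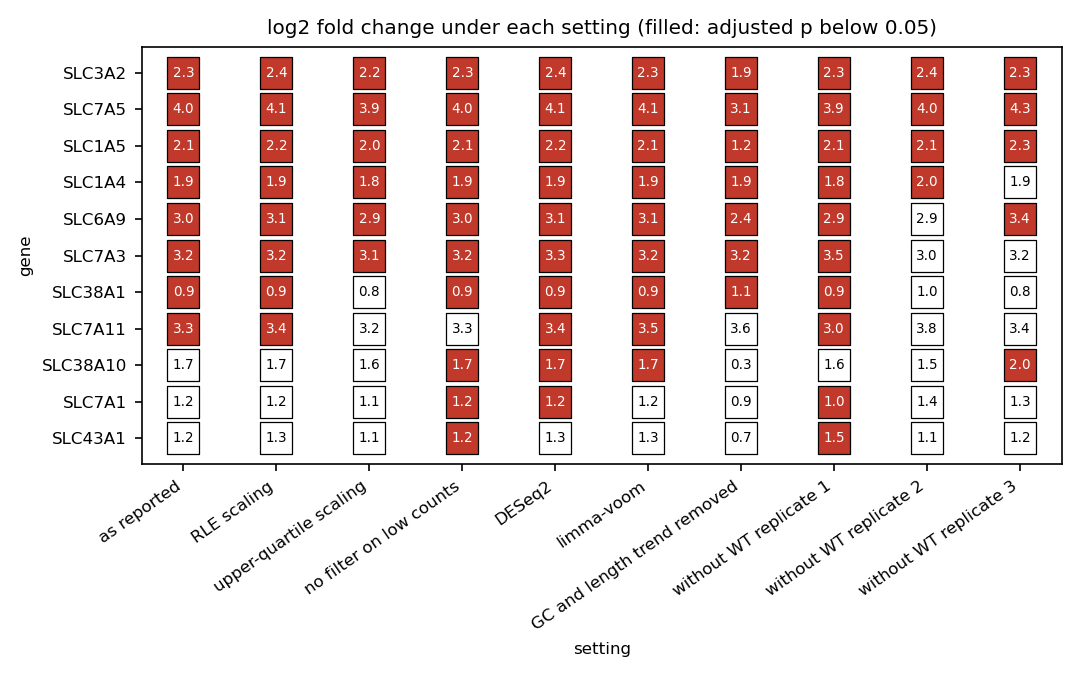
Log2 fold change of the 8 called transporters and of SLC38A10, SLC7A1 and SLC43A1 (down the side), as reported and under each of the 9 alternatives (along the bottom); filled squares have an adjusted p below 0.05. The rows of SLC3A2, SLC7A5 and SLC1A5 are filled throughout, and SLC7A11 is filled in 4 of the 9 alternatives.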

How the data were processed

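Poly(A)-selected RNA of 4 Daoy libraries was sequenced as 100-nucleotide single reads on a kit that does not mark strand, per the labels' protocols. The deposited values are raw counts of reads per Ensembl gene, made by the authors with HISAT2 and HTSeq named for GRCh37 (hg19) in the submitters' processing notes; the versions, annotation release and strand setting were not given in the sources used here. Lines that name no gene (19.6% to 22.2% of each file's total) were left out.

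Identifiers were matched without version to symbols, and to GENCODE 29 (GRCh38) for length and GC content (90.5% of 57820 matched). Counts were fitted with edgeR 4.0.16 in R 4.3.3: filterByExpr (minimum count 10, total 15), TMM, glmQLFit with robust shrinkage, glmQLFTest, and Benjamini-Hochberg over all 17024 genes at 0.05. The lone library is assumed to vary as wild type does. Levels (CPM) are counts scaled to 1000000 reads of TMM-adjusted library size. The SE is the absolute log2 fold change over the square root of F. The trend on GC content and length was a loess fit (span 0.3, over genes averaging 20 counts or more) entered as offsets. DESeq2 1.42.0 and limma 3.58.1 (voom) were alternatives. The procedure was tested on simulated counts in which the lone library varied as the wild-type ones did and no GC trend was set. That test therefore cannot check the assumption on the lone library. Intervals are exact 95% Poisson intervals and cover counting error only.

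The transporters and companion lists were chosen with earlier results of these data known. Values in each library are given at least for called transporters and, per family, for the uncalled one with the smallest p; companion lists give up to 3 genes with the smallest p, plus ATF4 and NFE2L2. CEBPB, MAFG, MYC, DDIT3, CEBPG and the markers named were chosen after their values were seen. Of 174 list genes, 4 matched no identifier. Of the transporters, 10 have exons that overlap those of another gene in GENCODE 29, and their counts are uncertain to that extent.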

Additional observations from a re-analysis of the deposited data

How the results depend on the processing

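No paired analysis was possible because the group labelled ARID1B shRNA holds 1 library, whose label carries no replicate number. The number of transporters higher ranged from 4 to 10 without single wild-type libraries, and that of all genes from 140 to 912 higher and from 17 to 277 lower, against 621 and 142 in the full comparison. With no filter on low counts 2274 genes were higher and 952 lower, and 1 transporter, SLC7A8, was lower. DESeq2 gave 1336 higher and 439 lower. With the GC and length trend removed 341 were higher and 208 lower: 62.1% of calls were then higher, 70.5% with no filter, and 81.4% as measured. Upper-quartile scaling moved the median of all genes by -0.12 on the log2 scale and no filter by -0.22. ARID1B was called higher without wild-type library 1 (log2 fold change 1.12; 0.47 to 1.12 over single left-out libraries) and turned to -0.20 with the trend removed. Of the 30 tested transporters, 22 kept their direction in all 9 alternatives, SLC38A3 and SLC38A5 in the 8 that tested them, and 6, none of them called, did not. With the trend removed SLC38A2 turned to 0.09, SLC38A9 to 0.23 and SLC43A2 to -0.63. SLC36A1 was 0.02 with RLE scaling or DESeq2 and 0.01 with limma-voom. Without single wild-type libraries SLC36A1 ran from -0.11 to 0.09, SLC38A9 from -0.11 to 0.06, SLC7A7 from -0.07 to 0.56 and SLC38A4 from -1.48 to 0.26. The cause of these changes was not tested. Transporter levels below 1 CPM rest on 12 counts or fewer per library.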
